A study of Mus musculus with 6 samples.

Results

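Of 32 genes of fatty acid uptake, oxidation and their control, 4 rose in Clod-lip repair tissue relative to Empty-lip repair tissue. The other 28 did not pass the test. Summed markers of muscle fibres were also higher in Clod-lip, by 1.89-fold, and their part in the rises was not tested. The 4 rises made up 12.5% of the list, against 2.84% of all genes tested. None of the 32 passed with Clod-lip 1, Clod-lip 3 or Empty-lip 2 left out. The 4 were Cpt1b, the carnitine palmitoyltransferase of the muscle type, Acacb, the acetyl-CoA carboxylase whose malonyl-CoA inhibits that transferase, Acsl1, which activates long-chain fatty acids to acyl-CoA, and Acadvl, the very long-chain acyl-CoA dehydrogenase. Cpt1b averaged 26.3 ± 3.60 FPKM in Clod-lip, against 11.2 ± 2.38 FPKM in Empty-lip, and Acacb 14.5 ± 1.96 against 6.12 ± 0.697 FPKM in the same order (SD, n = 3 libraries each), while their paralogs Cpt1a and Acaca had fitted log2 changes of -0.27 and -0.06 and did not pass. The 32 genes are a fixed list of symbols. They were found by matching the symbols to the 23351 genes of the deposited table and by requiring a mean of at least 0.5 FPKM over the 6 libraries, which all 32 met. FPKM, the unit of the table, divides the fragments of a gene by its length and by the size of the library, so levels of different genes can be compared per length.

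Long-chain fatty acids cross the plasma membrane with the help of transport proteins, are bound in the cytosol and are activated to acyl-CoA. The carnitine shuttle then moves them into the mitochondrion, where each turn of the beta-oxidation spiral removes an acetyl unit and hands electrons to the respiratory chain. Malonyl-CoA made by the acetyl-CoA carboxylases blocks the entry step, and skeletal and heart muscle depend on this pathway more than most tissues do.

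Repair tissue of C57BL/6 mice was collected at the surface of injured bone and held both periosteum and quadriceps muscle. There were 3 Clod-lip and 3 Empty-lip libraries, from mice injected with the liposomes of that name, and the headers of the deposited table call the groups clodronate and empty. Clodronate liposomes are taken up by phagocytic cells and deplete them, and empty liposomes are their control. The sources used here do not give sex, age, dose, route or time after injury. The series title speaks of factors made by macrophages, blood vessel growth and wound healing. Whether the libraries of a group are from separate animals is not stated in the labels, and the p-values therefore measure the spread between these libraries, which may be technical. Steps between low FPKM values placed the depth of the libraries between 0.994 and 1.13 times that of Empty-lip 1, if no further scaling was applied. In bulk tissue, fewer cells of a type and less RNA per cell cannot be told apart. Small RNA genes were taken by symbol, and the symbols covered were those of microRNA, small nucleolar, small nuclear, ribosomal and other noncoding RNA. Their share of FPKM was 32.7%, 0.294% and 0.144% in Clod-lip 1, 2 and 3, against 45.1%, 39.1% and 47.7% in Empty-lip 1, 2 and 3. Rescaling the libraries without these genes left the same 4 of the 32 genes passing. The sums without these genes were already close, from 561157 FPKM in Clod-lip 3 to 605994 FPKM in Clod-lip 2, so this rescaling could move values only a little.

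Against 1.21% of all genes tested, 3 of 14 macrophage markers fell and 11 did not pass. Their summed FPKM was 5450, 8035 and 4699 in Clod-lip 1, 2 and 3, against 8277, 8601 and 8718 in Empty-lip 1, 2 and 3, lower in every Clod-lip library and closest to Empty-lip in Clod-lip 2. The groups did not overlap for 6 of the 14, all lower in Clod-lip (13.4% of all genes tested were so), including the 3 that fell, which are named after their values were seen. Fcgr1, an Fc receptor, had 23.4, 53.0 and 22.4 FPKM in Clod-lip, against 85.4, 98.5 and 89.1 FPKM in Empty-lip. Mrc1, the mannose receptor, ranged from 58.4 to 91.5 FPKM in Clod-lip, against 118 to 126 FPKM in Empty-lip, and Mertk, a receptor for dying cells, from 12.5 to 13.5 FPKM, against 17.0 to 17.5 FPKM in the same order. Emr1, the symbol used in the table for Adgre1, the gene of the F4/80 antigen, overlapped, with 82.8, 144 and 90.5 FPKM in Clod-lip, against 131, 143 and 133 FPKM in Empty-lip. With Clod-lip 2 left out 11 of the 14 fell, and with any other library left out none passed by limma, with 6 to 8 at an unadjusted p under 0.05.

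Many genes of this pathway are bound by nuclear receptors, among them the peroxisome proliferator-activated receptors and the estrogen-related receptors, whose sites contain the letters AGGTCA. The RefSeq promoter table of build GRCm38.p6 holds 31 windows of 300 bases, most of them before a transcript start, for 28 of the 32 genes, and no entry for Acaa2, Cpt1b, Decr1 and Ppargc1b. The 150 bases before the start are given for the 3 rising genes with an entry and for Cpt1a, with any AGGTCA, on either strand, in capitals. The Acacb and Cpt1a windows lie inside the gene spans that GENCODE annotates, so they belong to RefSeq transcripts that start downstream of the outermost annotated start.
Acacb, chr5:114165368-114165517, plus strand: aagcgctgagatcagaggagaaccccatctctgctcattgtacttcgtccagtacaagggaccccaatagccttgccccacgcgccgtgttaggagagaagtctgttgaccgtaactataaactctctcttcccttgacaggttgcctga
Acsl1, chr8:46470887-46471036, plus strand, the first of 2 windows: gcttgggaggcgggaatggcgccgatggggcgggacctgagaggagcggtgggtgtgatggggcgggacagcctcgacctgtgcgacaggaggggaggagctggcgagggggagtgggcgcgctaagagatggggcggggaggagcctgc
Acadvl, chr11:70015429-70015578, minus strand: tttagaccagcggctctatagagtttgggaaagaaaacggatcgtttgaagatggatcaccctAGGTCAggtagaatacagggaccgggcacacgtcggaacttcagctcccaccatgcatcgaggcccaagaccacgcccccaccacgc
Cpt1a, chr19:3323151-3323300, plus strand: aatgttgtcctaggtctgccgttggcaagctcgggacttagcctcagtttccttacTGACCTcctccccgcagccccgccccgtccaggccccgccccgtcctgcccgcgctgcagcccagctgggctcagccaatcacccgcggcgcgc
Acadvl carried the letters 87 bases before its start on the strand of the gene, and Cpt1a carried them 94 bases before its start on the opposite strand. Acacb and Acsl1 had none in these 150 bases, though the full Acacb window held a match after the start. Over the full windows, AGGTCA stood in 7 of the 31, those of Acacb, Acadm, Acadvl, Cd36, Cpt1a, Echs1 and Ucp3. That was 22.6% of these windows, against 16.3% of all 32851 windows. A pair of AGGTCA on the same strand with 1 base between them was in none of the 31 windows, against 0.0396% of all windows. TCAAGGTCA, a longer form that overlaps AGGTCA, was also in none, against 0.423% of all windows. A match describes letters in a window and is not a measured site.

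The test across all genes (limma on log2(FPKM + 1), Benjamini-Hochberg adjustment over 13408 genes, threshold 0.05) called 4 of the 32 genes higher in Clod-lip, or 12.5%, against a background of 2.84% of all genes tested. None of the 32 passed in the other direction, in which 1.21% of all genes passed; at an unadjusted p under 0.05 by limma, 18 of the 32 were higher and 2 were lower, against 11.4% and 10.4% of all genes in the same order. The median fitted log2 change of the 32 genes was 0.30, with quartiles of 0.18 and 0.43, whereas that of all genes tested was -0.01, with quartiles of -0.15 and 0.16. A total of 28 had a positive fitted log2 change and 4 a negative one. The 3 Clod-lip libraries lay above the 3 Empty-lip libraries for 15 of the 32 genes, or 46.9%, against 14.0% of all genes, and below them for 2 genes, Cpt1a and Pdk4, against a background of 13.4%. The groups overlapped for the other 15.

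The number passing rested on single libraries. With Clod-lip 1, 2 or 3 left out, 0, 7 and 0 of the 32 genes passed, and with Empty-lip 1, 2 or 3 left out, 4, 0 and 2 did. The same fits called 30, 1392 and 16 of all 13408 genes with Clod-lip 1, 2 or 3 left out, and 269, 2 and 85 with Empty-lip 1, 2 or 3 left out. By limma without Clod-lip 1, Clod-lip 3 or Empty-lip 2, the fits with no passing gene, 13, 19 and 15 of the 32 had an unadjusted p under 0.05, against 17.4%, 15.9% and 16.0% of all genes. Over all 6 such fits that share of all genes ran from 15.9% to 25.8%. The 2 genes left without Empty-lip 3 were Acacb and Cpt1b, and those added without Clod-lip 2 were Acadm, Hadhb and Ppargc1a. The median fitted log2 change stayed between 0.22 and 0.33 in all these fits. In the authors' deposited table, which tested 30 of the 32 genes and left out Ppara and Ppargc1a, 9 were called higher in Clod-lip, against 6.82% of all genes they tested, and 1 was called lower, against 5.41%.

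Summed over the 32 genes, the level was 2037, 1571 and 1576 FPKM in Clod-lip 1, 2 and 3, against 1260, 1394 and 1362 FPKM in Empty-lip 1, 2 and 3. The mean sum was 1728 ± 268 FPKM in Clod-lip, against 1338 ± 69.9 FPKM in Empty-lip (SD, n = 3 each), a ratio of 1.29. Clod-lip 1 stood above the other two Clod-lip libraries for 23 of the 32 genes, and Clod-lip 2 was the lowest Clod-lip library for 21. The median over the 32 genes, relative to the Empty-lip mean on the log2 scale, was 0.46, 0.22 and 0.25 in Clod-lip 1, 2 and 3, against -0.06, 0.03 and 0.02 in Empty-lip 1, 2 and 3.

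**Figure D1:**
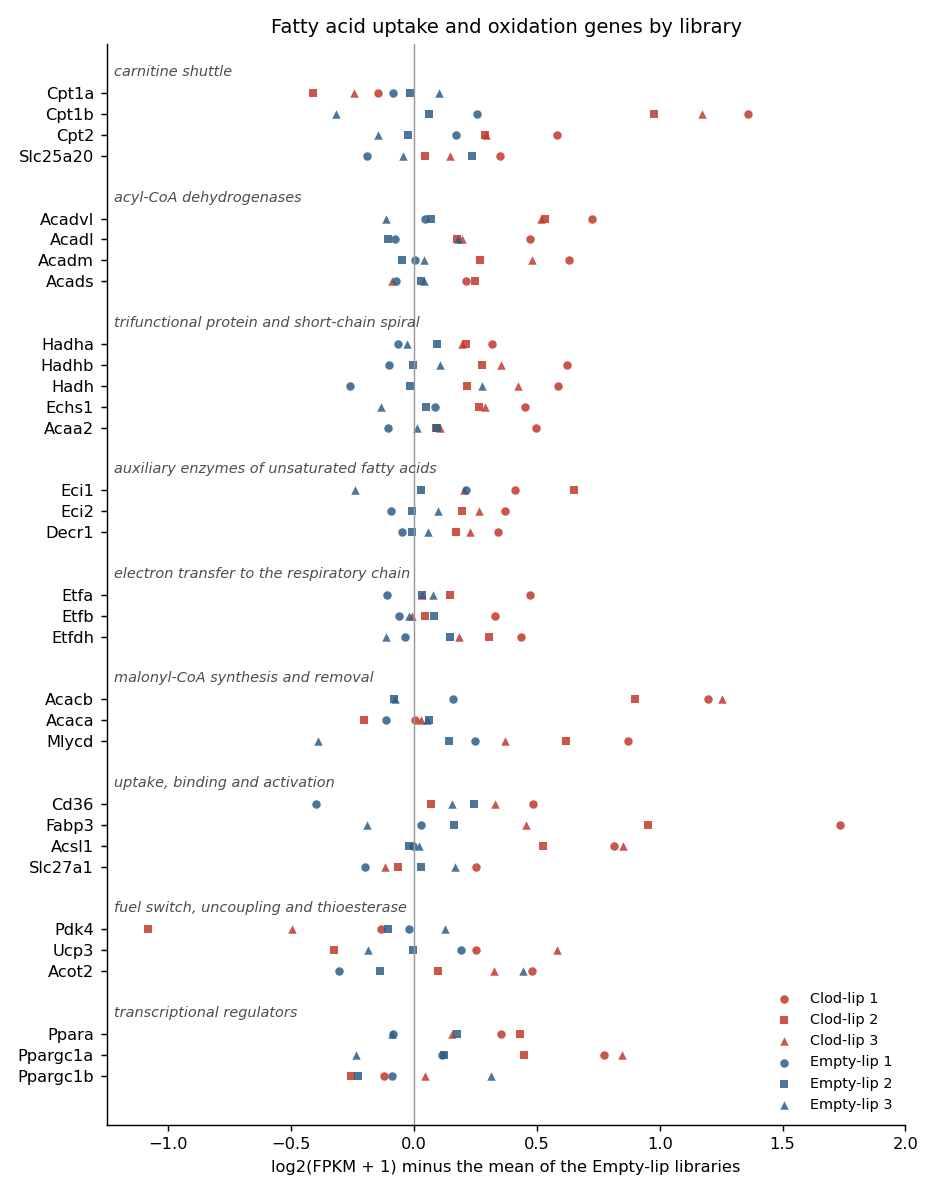
Level of each of the 32 genes in each library, as log2(FPKM + 1) minus the mean of the 3 Empty-lip libraries, with Clod-lip in red, Empty-lip in blue and a marker shape for each replicate number. Cpt1b, Acacb, Acsl1 and Acadvl have all 3 Clod-lip points to the right of all Empty-lip points, Cpt1a and Pdk4 have them to the left, and Clod-lip 1 is often the rightmost point.

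Levels of the 32 genes spanned a wide range. The highest means over the 6 libraries were those of Cd36, a fatty acid translocase at the cell surface, with 192 FPKM, Fabp3, the fatty acid binding protein of heart and muscle, with 174 FPKM, and Etfb, a subunit of the electron transfer flavoprotein, with 142 FPKM. Over the 6 libraries Cd36 ranged from 129 to 239 FPKM and Fabp3 from 94.1 to 360 FPKM. The groups overlapped for Cd36 and not for Fabp3. The lowest were the transcriptional regulators Ppargc1a, with 0.976 FPKM, and Ppara, with 0.693 FPKM. Ppara stood just inside the minimum of 0.5 FPKM, and none of the 32 genes fell outside it.

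At the carnitine shuttle, 1 of 4 genes rose. Cpt1b, on chromosome 15 from 89416405 to 89425863 of GRCm38 on the minus strand, had 29.9, 22.7 and 26.2 FPKM in Clod-lip 1, 2 and 3, against 13.4, 11.6 and 8.68 FPKM in Empty-lip 1, 2 and 3. Every Clod-lip library lay well above every Empty-lip library. The fitted log2 change was 1.17 ± 0.16 (SE), with a limma adjusted p of 0.0167. The position given for Cpt1b in the deposited table also covers its neighbour Chkb, a choline kinase gene, and reads of the pair may not be fully separated. Chkb had a fitted log2 change of 0.35 ± 0.16 and a limma adjusted p of 0.250, and at 14.9, 13.3 and 10.5 FPKM in Clod-lip against 9.01, 11.8 and 8.83 FPKM in Empty-lip its groups overlapped.

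Cpt1a, the paralog that liver and most other tissues use for the same step, was set beside it after its values were seen. It lies on chromosome 19 from 3322334 to 3385733 and had 37.9, 31.3 and 35.4 FPKM in Clod-lip, against 39.5, 41.6 and 45.1 FPKM in Empty-lip. Its 3 Clod-lip values were all below its 3 Empty-lip values, but the fitted log2 change of -0.27 ± 0.10 did not pass (limma adjusted p = 0.164). Cpt1a thus had the higher FPKM of the pair in every library. Cpt2, the transferase of the inner membrane, had 24.2, 19.6 and 19.6 FPKM in Clod-lip, against 18.0, 15.6 and 14.2 FPKM in Empty-lip. Its groups did not overlap, and its fitted log2 change of 0.39 ± 0.12 did not pass (limma adjusted p = 0.124). Slc25a20, the carrier that exchanges acylcarnitine for carnitine, ranged from 30.1 to 37.4 FPKM in Clod-lip, against from 25.4 to 34.5 FPKM in Empty-lip, and overlapped.

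**Figure D2:**
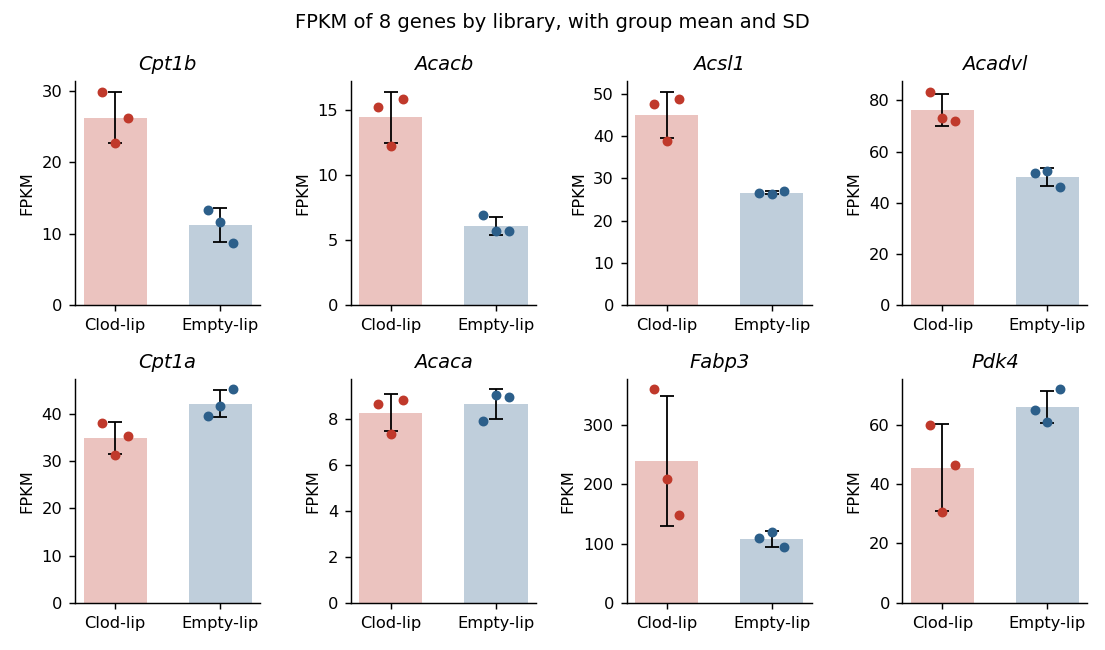
FPKM of 8 of the genes in each library as points, with bars from 0 for the group mean and error bars for the SD over 3 libraries, Clod-lip left and Empty-lip right. The 4 upper genes passed the test and show no overlap, Cpt1a and Pdk4 lie lower in every Clod-lip library without passing, Acaca overlaps, and Fabp3 is widely spread within Clod-lip.

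Of the 4 acyl-CoA dehydrogenases, which take chains of decreasing length through the first step of the spiral, 1 rose and all 4 had positive fitted log2 changes. Acadvl, on chromosome 11 from 70010183 to 70015411 on the minus strand, had 83.4, 73.0 and 72.0 FPKM in Clod-lip 1, 2 and 3, against 51.6, 52.6 and 46.1 FPKM in Empty-lip 1, 2 and 3. The groups were far apart relative to their spread, with a fitted log2 change of 0.59 ± 0.09 and a limma adjusted p of 0.0210. The annotated span of Acadvl overlaps that of Dvl2 on the opposite strand, and the sources used here do not say whether strand was used in counting.

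Acadm, the medium-chain enzyme, had 59.4, 45.9 and 53.4 FPKM in Clod-lip, against 38.2, 36.7 and 39.2 FPKM in Empty-lip. All Clod-lip values were higher, and the fitted log2 change of 0.46 ± 0.10 stood just outside the threshold (limma adjusted p = 0.0532); it passed without Clod-lip 2, alone or together with Empty-lip 1, and with a minimum of 5 FPKM. Acadl, the long-chain enzyme, averaged 114 ± 13.6 FPKM in Clod-lip, against 93.1 ± 10.5 FPKM in Empty-lip, with overlap. Acads, the short-chain enzyme, averaged 33.5 ± 4.24 FPKM in Clod-lip, against 30.5 ± 1.34 FPKM in Empty-lip, also with overlap (SD, n = 3 each).

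The trifunctional protein, which carries out the later steps on long chains, is made of Hadha and Hadhb, and Echs1, Hadh and Acaa2 serve shorter chains. All 5 had positive fitted log2 changes and none of them passed by limma, with 4 at an unadjusted p under 0.05. Hadhb had 108, 84.5 and 89.4 FPKM in Clod-lip, against 64.7, 69.4 and 75.0 FPKM in Empty-lip. Hadha had 61.6, 57.2 and 56.6 FPKM in Clod-lip, against 47.0, 52.5 and 48.3 FPKM in Empty-lip. Both subunits were higher in every Clod-lip library, with fitted log2 changes of 0.42 ± 0.11 for Hadhb and 0.24 ± 0.08 for Hadha and limma adjusted p of 0.0764 and 0.130 in the same order.

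Echs1, the short-chain enoyl-CoA hydratase, had 63.3, 55.5 and 56.5 FPKM in Clod-lip, against 48.9, 47.6 and 41.9 FPKM in Empty-lip. It was likewise higher in every Clod-lip library, with a fitted log2 change of 0.33 ± 0.09 (limma adjusted p = 0.0888). Hadh, the short-chain hydroxyacyl-CoA dehydrogenase, and Acaa2, a thiolase, overlapped between the groups, with fitted log2 changes of 0.41 and 0.23.

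Unsaturated chains need the isomerases Eci1 and Eci2 and the reductase Decr1. Eci2 had 46.5, 41.0 and 43.1 FPKM in Clod-lip, against 33.4, 35.5 and 38.3 FPKM in Empty-lip. Its groups did not overlap, and the fitted log2 change of 0.28 ± 0.09 did not pass (limma adjusted p = 0.119). Decr1, from 19.2 to 21.8 FPKM in Clod-lip, against from 16.4 to 17.7 FPKM in Empty-lip, did not overlap either, and Eci1, with a fitted log2 change of 0.42 ± 0.15, overlapped. Electrons from the dehydrogenases pass through the flavoprotein subunits Etfa and Etfb to the oxidoreductase Etfdh. Etfdh had 39.8, 36.3 and 33.2 FPKM in Clod-lip, against 28.4, 32.4 and 26.9 FPKM in Empty-lip. It was higher in every Clod-lip library, with a fitted log2 change of 0.31 ± 0.10 (limma adjusted p = 0.140), while Etfa and Etfb, with 0.22 and 0.12, overlapped.

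Malonyl-CoA is made by Acaca and Acacb and removed by Mlycd, and 1 of these 3 genes rose. Acacb, the carboxylase of the mitochondrial surface in heart and muscle, lies on chromosome 5 from 114146535 to 114250761. It had 15.3, 12.2 and 15.9 FPKM in Clod-lip 1, 2 and 3, against 6.93, 5.71 and 5.73 FPKM in Empty-lip 1, 2 and 3. The lowest Clod-lip value was well above the highest Empty-lip value, and the fitted log2 change was 1.12 ± 0.13, with a limma adjusted p of 0.0133, the smallest among the 32 genes.

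Acaca, the carboxylase that supplies fatty acid synthesis in the cytosol, was set beside it after its values were seen. It had 8.66, 7.36 and 8.82 FPKM in Clod-lip, against 7.90, 9.05 and 8.98 FPKM in Empty-lip, and the groups overlapped (fitted log2 change -0.06 ± 0.11, limma adjusted p = 0.826). Mlycd, malonyl-CoA decarboxylase, had 21.1, 17.5 and 14.6 FPKM in Clod-lip, against 13.3, 12.3 and 8.20 FPKM in Empty-lip. It was higher in every Clod-lip library, and its fitted log2 change of 0.62 ± 0.20 did not pass (limma adjusted p = 0.122).

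The 2 paralog pairs were also compared as ratios of FPKM within each library, which no scaling of a library can move. The ratio of Cpt1b to Cpt1a was 0.789, 0.725 and 0.741 in Clod-lip 1, 2 and 3, against 0.339, 0.278 and 0.192 in Empty-lip 1, 2 and 3. The ratio of Acacb to Acaca was 1.76, 1.66 and 1.80 in Clod-lip, against 0.877, 0.631 and 0.638 in Empty-lip. Acacb was therefore the higher of its pair in every Clod-lip library and the lower of it in every Empty-lip library. The differences in the log2 ratio were 1.52 and 1.30, and an exact permutation test, two-sided, gave p = 0.1 for each, which is the lowest it can give with 3 libraries a group (Benjamini-Hochberg adjusted p = 0.1 over 3 such exact tests, with that of Pdk2 and Pdk4). These ratios were chosen after the values were seen.

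**Figure D3:**
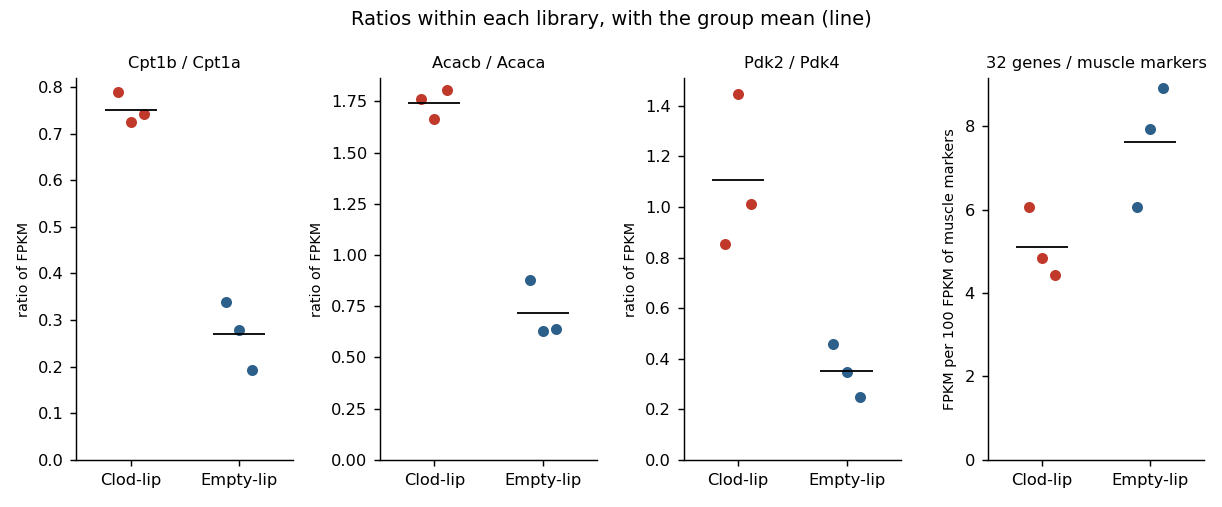
Ratios of FPKM within each library, with points for libraries and lines for group means, Clod-lip left and Empty-lip right. The first 3 panels show Cpt1b over Cpt1a, Acacb over Acaca and Pdk2 over Pdk4, all higher in every Clod-lip library, and the last shows the summed FPKM of the 32 genes per 100 FPKM of muscle fibre markers, where Clod-lip 1, at 6.06, lies level with Empty-lip 1, at 6.05, and the other 2 Clod-lip libraries lie lower.

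Among the genes of uptake, binding and activation, 1 of 4 rose. Acsl1, the main long-chain acyl-CoA synthetase of muscle, fat and liver, lies on chromosome 8 from 46471037 to 46536051. It had 47.5, 38.7 and 48.7 FPKM in Clod-lip 1, 2 and 3, against 26.5, 26.2 and 27.0 FPKM in Empty-lip 1, 2 and 3. The Empty-lip values lay close together and all Clod-lip values lay above them, with a fitted log2 change of 0.73 ± 0.10 and a limma adjusted p of 0.0163.

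Fabp3 had 360, 209 and 148 FPKM in Clod-lip, against 110, 121 and 94.1 FPKM in Empty-lip. It was higher in every Clod-lip library, but its Clod-lip SD of 109 FPKM around a mean of 239 FPKM was wide, and the fitted log2 change of 1.05 ± 0.29 did not pass (limma adjusted p = 0.0880). Cd36 averaged 211 ± 30.1 FPKM in Clod-lip, against 174 ± 39.2 FPKM in Empty-lip, and Slc27a1, a fatty acid transport protein, had a fitted log2 change of 0.02 ± 0.14. The groups overlapped for both.

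Pdk4, the pyruvate dehydrogenase kinase induced by fasting and a known target of the peroxisome proliferator-activated receptors, had 59.8, 30.5 and 46.4 FPKM in Clod-lip, against 64.9, 61.0 and 71.9 FPKM in Empty-lip. All Clod-lip values were lower, and the fitted log2 change of -0.57 ± 0.22 did not pass (limma adjusted p = 0.181). In the authors' deposited table Pdk4 was the only one of the 32 genes called lower, with q = 0.00243. Its detail was added after its values were seen. Ucp3, an uncoupling protein of muscle, overlapped, at 0.17 ± 0.23. Acot2, a mitochondrial acyl-CoA thioesterase, overlapped too, and its value is uncertain because reads can be shared with its near-identical neighbour Acot1.

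The 3 transcriptional regulators were low. Ppargc1a, a coactivator of mitochondrial genes, had 1.57, 1.05 and 1.70 FPKM in Clod-lip, against 0.624, 0.633 and 0.277 FPKM in Empty-lip. Every Clod-lip library was higher, with a fitted log2 change of 0.69 ± 0.19 (limma adjusted p = 0.0928) on a scale that understates the change of genes near 1 FPKM. Ppara, a nuclear receptor for fatty acids, and Ppargc1b, a second coactivator of this family, overlapped, with fitted log2 changes of 0.31 and -0.11.

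**Figure D4:**
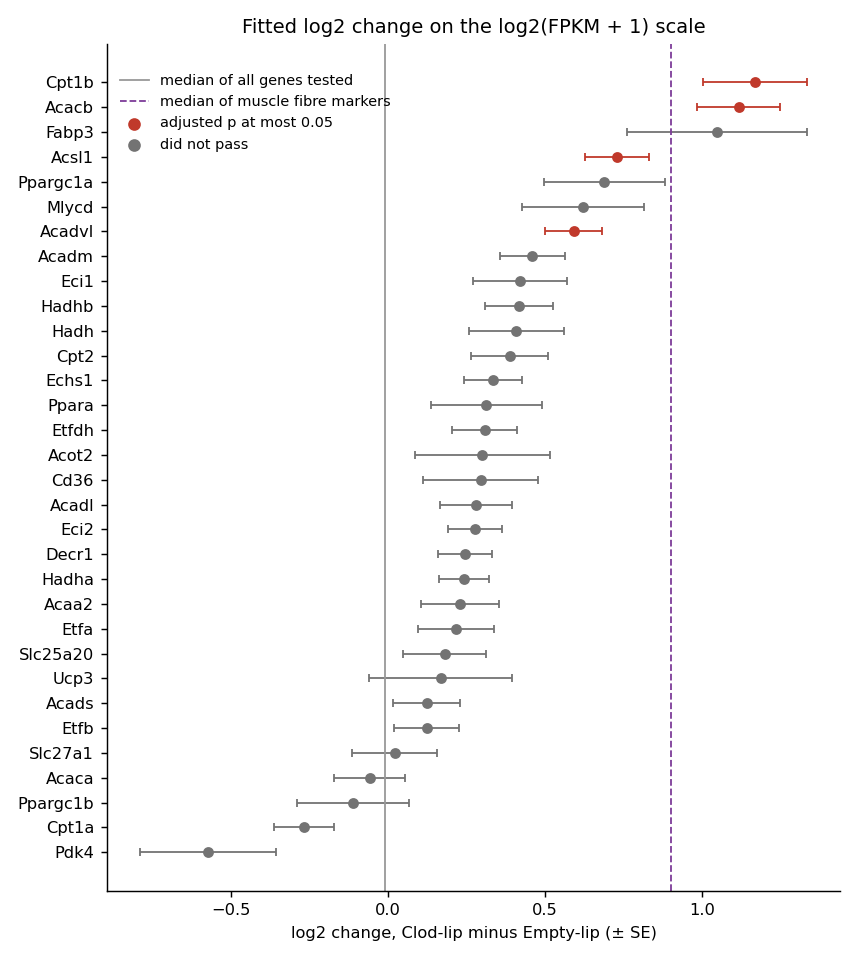
Fitted log2 change of each of the 32 genes, Clod-lip minus Empty-lip, with bars for the standard error, red for adjusted p of at most 0.05 and grey for the rest. Cpt1b, at 1.17, Acacb, at 1.12, and Fabp3, at 1.05, which did not pass, lie beyond the dashed median of the muscle fibre markers, at 0.90, and most of the others lie between it and the solid median of all genes.

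Markers of skeletal muscle fibres, which the dissected tissue holds, also differed between the groups. Of 26 such markers 20 rose, or 76.9%, against 2.84% of all genes tested. The other 6 did not pass, and the median fitted log2 change of the 26 was 0.90. With Clod-lip 1, Clod-lip 3 or Empty-lip 2 left out none of the 26 passed by limma, with 22, 22 and 23 at an unadjusted p under 0.05, and with Empty-lip 3 left out 8 rose. Their summed FPKM was 33617, 32544 and 35490 in Clod-lip 1, 2 and 3, against 20814, 17601 and 15273 in Empty-lip 1, 2 and 3, a 1.89-fold ratio of means. Acta1, skeletal actin, had 6650 ± 574 FPKM in Clod-lip, against 3710 ± 547 FPKM in Empty-lip, and Mylpf, a fast light chain, had 3721 ± 31.6 and 2086 ± 264 FPKM in the same order (SD, n = 3 each). Among those that did not pass, the troponin genes of slow fibres, Tnnt1, Tnni1 and Tnnc1, had fitted log2 changes of -0.21, -0.24 and -0.09. Myh7 and Myl2, also genes of slow fibres, went the other way, with 0.20 and 1.01, as did Ttn, with 0.69. The part of muscle fibres in the values of the 32 genes was not tested.

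Set against the muscle markers in the same library, the 32 genes summed to 6.06, 4.83 and 4.44 FPKM per 100 FPKM of muscle markers in Clod-lip 1, 2 and 3, against 6.05, 7.92 and 8.92 in Empty-lip 1, 2 and 3. Clod-lip 1 and Empty-lip 1 were level, and the other two Clod-lip libraries lay below all Empty-lip libraries. The ratio of the means was 0.670. Taken singly in this way, 20 of the 32 genes were lower in every Clod-lip library than in any Empty-lip library, and 10 overlapped. The other 2, Cpt1b and Acacb, were higher in every Clod-lip library, both with a ratio of means of 1.24. For Acacb the groups nearly met, at 0.0376 FPKM per 100 FPKM of muscle markers in Clod-lip 2, against 0.0375 in Empty-lip 3. The closest values for Cpt1b were 0.0698 in Clod-lip 2 and 0.0658 in Empty-lip 2. Of all genes tested, 81.3% were lower and 0.515% higher in this way, with a median ratio of means of 0.518, since the muscle marker sum in the divisor was itself higher in Clod-lip. For the 32 genes the median was 0.632. The ratio of means per muscle marker FPKM was 0.877 for Acsl1, 0.795 for Acadvl, 0.428 for Cpt1a and 0.356 for Pdk4, the lowest of the 32, and 1.51 for Ppargc1a, the highest. These are descriptions without a test, and the muscle list was chosen with its rise in these libraries known.

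Markers of other cell types in the tissue also differed. For comparison, 2.84% of all genes tested rose and 1.21% fell. Of 11 neutrophil markers tested 5 rose, namely Ngp, Camp, Ltf, Elane and Mpo. The summed FPKM of the list was 915, 3459 and 1273 in Clod-lip, against 1334, 619 and 538 in Empty-lip. S100a8 and S100a9, the highest in it, overlapped between the groups and did not pass (limma adjusted p of 0.352 and 0.366). Csf3r and Cxcr2 did not pass either, with fitted log2 changes of -0.27 and -0.0005. Without Clod-lip 1 or Empty-lip 3 the rises numbered 2 and 3, and without Clod-lip 3 or Empty-lip 2 none passed by limma, with 6 and 5 at an unadjusted p under 0.05. Of 11 adipocyte markers tested 2 rose, and their sum was 384, 330 and 547 FPKM in Clod-lip, against 322, 260 and 407 FPKM in Empty-lip. Cfd, an adipocyte serine protease, and Pnpla2, a triglyceride lipase also active in muscle, were the highest of them. Pnpla2 rose (limma adjusted p = 0.0280) and Cfd did not pass (limma adjusted p = 0.648). The other rise was that of Plin4 (limma adjusted p = 0.0495). Both rises were lost whichever library but Clod-lip 2 was left out, with 4 to 6 markers at an unadjusted p under 0.05 by limma. The brown fat marker Ucp1 was listed at 0 in 5 of the 6 libraries. Of 12 endothelial markers, which matter here because capillaries express Cd36, none passed by limma, with 3 at an unadjusted p under 0.05. Their sum was 390, 380 and 419 FPKM in Clod-lip, against 382, 298 and 334 FPKM in Empty-lip, with Pecam1 and Cdh5 the highest. Of 15 markers of periosteum, bone and fibroblasts tested, led by Col3a1 and Col1a1, 14 did not pass and Acp5, an osteoclast phosphatase, fell, a call that was lost whichever library but Clod-lip 2 was left out. Lyz2 and Ctss, the highest of the macrophage markers, had 2950, 4249 and 2393 FPKM and 642, 963 and 662 FPKM in Clod-lip 1, 2 and 3, against 4207, 4279 and 4450 FPKM and 1129, 1234 and 1184 FPKM in Empty-lip 1, 2 and 3. The part of these cell types in the values of the 32 genes was not tested.

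Around the 32 genes, 121 further genes of related lists were tested, of which 112 did not pass, 8 rose and 1 fell. Their median fitted log2 change was 0.16. The 8 were 6.61% of the 121, against 2.84% of all genes tested, and 1.21% of all genes fell. With Clod-lip 2 left out 22 rose and 2 fell, and with Empty-lip 1 left out 5 rose. With any of the other 4 libraries left out none of the 121 passed by limma, with 31 to 40 at an unadjusted p under 0.05. The 8 rises included 4 where carbon of glucose enters the mitochondrion. Of 12 genes of the pyruvate dehydrogenase complex, its kinases and phosphatases and the pyruvate carrier, 4 rose, and the 3 of smallest p were Mpc1, Pdk2 and Pdp1. Mpc1, a subunit of the mitochondrial pyruvate carrier, had 112, 108 and 120 FPKM in Clod-lip, against 84.6, 80.0 and 79.3 FPKM in Empty-lip (fitted log2 change 0.47 ± 0.07, limma adjusted p = 0.0217). Pdk2, a constitutive kinase of the complex, had 51.1, 44.2 and 46.9 FPKM in Clod-lip, against 29.8, 21.2 and 17.9 FPKM in Empty-lip (fitted log2 change 1.04 ± 0.17, limma adjusted p = 0.0246). Pdp1, a phosphatase that reactivates the complex, had 15.3, 11.8 and 15.3 FPKM in Clod-lip, against 8.31, 8.60 and 8.71 FPKM in Empty-lip (fitted log2 change 0.66 ± 0.12, limma adjusted p = 0.0327).

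Both a kinase and a phosphatase of the complex thus rose, while Pdk4 did not pass and lay lower. The ratio of Pdk2 to Pdk4 was 0.855, 1.45 and 1.01 in Clod-lip 1, 2 and 3, against 0.458, 0.348 and 0.249 in Empty-lip 1, 2 and 3. The difference in the log2 ratio was 1.66, with p = 0.1 in the same exact permutation test. With Pdk2 higher and Pdk4 lower in every Clod-lip library, this test could only give its lowest p. The ratio was chosen after the values were seen. Of 18 citric acid cycle enzymes 1 rose, and all 18 had positive fitted log2 changes, with a median of 0.26. Every Clod-lip library was higher for 11 of these 18, or 61.1%. The same held for 7 of the 12 pyruvate dehydrogenase genes, or 58.3%, against 46.9% of the 32 genes and 14.0% of all genes tested.

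Of 21 tested receptors, co-regulators and energy sensors of oxidative metabolism, 2 rose, and both are subunits of the AMP-activated protein kinase, which phosphorylates and inhibits the acetyl-CoA carboxylases. Prkab2, the beta subunit most used in muscle, had 18.4, 18.7 and 25.8 FPKM in Clod-lip, against 10.4, 10.1 and 8.40 FPKM in Empty-lip (fitted log2 change 1.03 ± 0.15, limma adjusted p = 0.0184). Prkaa2, the catalytic subunit most used in muscle, had 14.4, 11.8 and 15.8 FPKM in Clod-lip, against 8.52, 6.83 and 4.85 FPKM in Empty-lip (fitted log2 change 0.98 ± 0.19, limma adjusted p = 0.0391). All Clod-lip values were above all Empty-lip values for both.

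The lists nearest to the 32 genes in function held few passing genes. Of all genes tested 2.84% rose and 1.21% fell, so lists this short could hold none at those shares alone. Of 21 tested genes of peroxisomal oxidation, none passed by limma, with 5 at an unadjusted p under 0.05 and a median fitted log2 change of 0.09. Every Clod-lip library was higher for 5 of the 21, or 23.8%, against 14.0% of all genes tested. Its 2 genes of highest mean were Ech1, an isomerase of unsaturated chains, at 102 ± 13.2 FPKM in Clod-lip, against 85.1 ± 2.37 FPKM in Empty-lip, and Scp2, a sterol carrier, at 60.3 ± 1.43 and 60.3 ± 2.40 FPKM in the same order. Of 18 other mitochondrial acyl-CoA enzymes none passed by limma, with 7 at an unadjusted p under 0.05. Every Clod-lip library was higher for 6 of these 18, or 33.3%. The highest of these were Oxct1, of ketone body use, at 62.2 ± 2.14 FPKM in Clod-lip, against 61.9 ± 2.71 FPKM in Empty-lip, and Hsd17b10, of branched chain breakdown, at 60.6 ± 6.64 and 62.9 ± 3.95 FPKM in the same order.

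Of 20 other uptake, ligase and thioesterase genes 1 fell and 19 did not pass. Fabp5, a fatty acid binding protein of epidermis, macrophages and endothelium, had 452, 527 and 376 FPKM in Clod-lip, against 674, 715 and 693 FPKM in Empty-lip. All Clod-lip values were lower (fitted log2 change -0.63 ± 0.12, limma adjusted p = 0.0391), and Fabp5 had more FPKM than Fabp3 in every library. Of 11 genes of fatty acid synthesis 1 rose, and the median fitted log2 change was 0.04. Me1, the malic enzyme that supplies NADPH in the cytosol, had 28.0, 31.4 and 32.9 FPKM in Clod-lip, against 19.8, 20.4 and 22.7 FPKM in Empty-lip (fitted log2 change 0.53 ± 0.10, limma adjusted p = 0.0317).

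**Figure D5:**
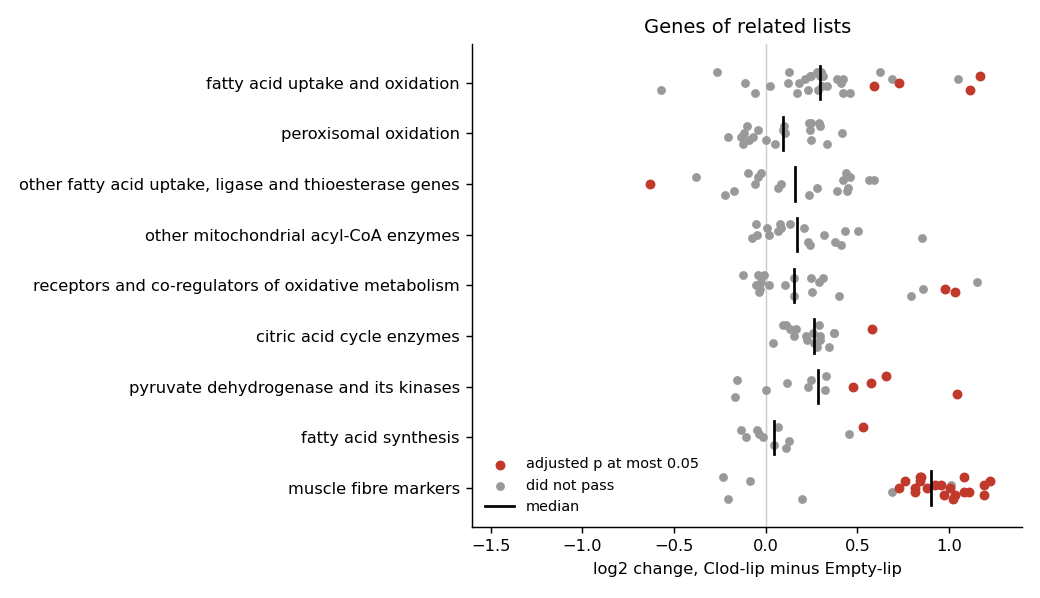
Fitted log2 change of each tested gene, Clod-lip minus Empty-lip, in the 32 genes, 7 related lists and the muscle fibre markers, with red for adjusted p of at most 0.05, grey for the rest and a black line for the median. The median is 0.30 for the 32 genes, 0.09 for peroxisomal oxidation, 0.26 for the citric acid cycle, 0.28 for pyruvate dehydrogenase and its kinases and 0.90 for muscle fibre markers.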

How the data were processed

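Total RNA of repair tissue was sequenced in 3 Clod-lip and 3 Empty-lip libraries, grouped by title. The authors deposited FPKM for 23351 genes and a comparison with p-values, q-values and a test score; TopHat and mm10 are named per the submitters' processing notes, and the sources used here give no other tool. FPKM are not counts, so no count test was run and counting intervals were not derived. Here log2(FPKM + 1) of the 13408 genes that averaged 0.5 FPKM or more was fitted with limma 3.58.1 (R 4.3.3; moderated test with trend, two-sided, Benjamini-Hochberg, 0.05); fold changes on this scale understate low genes. Positions are from GENCODE on GRCm38, the build mm10.

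The 32 genes and all lists were chosen with earlier results of these data known. Values per library are given for passing genes, the 10 others of smallest p and 3 chosen after their values were seen. Each related list is given by up to 3 passing genes or, with none, the 2 of highest mean. Each marker list is given by the 2 of highest mean, and other markers are named after their values were seen. The values of 1 passing gene of a related list are not reported here. Of 248 list entries 247 matched a symbol. Pearson correlations between libraries were 0.950 to 0.977, with no identical pair. In 5 simulations of Clod-lip against Empty-lip with 200 of 13408 genes changed, 74.4% of 2-fold and 95.5% of 4-fold changes were recovered, with 8 false calls on average. Alternatives were a replicate block, each library left out, quantile normalization, no filter, a minimum mean of 5 FPKM, pseudocounts of 0.1 and 0.5, rescaling without small RNA genes, limma without trend, and, chosen after seeing the data, leaving out Empty-lip 1 with Clod-lip 2.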

Additional observations from a re-analysis of the deposited data

How the results depend on the processing

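The count of all genes passing, 543, was within 1.5 times of that with quantile normalization, pseudocounts of 0.1 and 0.5, a minimum mean of 5 FPKM and rescaling without small RNA genes. It was 170 with the replicate number as a block, 312 with no filter, 284 by limma without trend, and 1101 without Empty-lip 1 and Clod-lip 2 together, an alternative chosen after seeing the data. With 1 library left out it ranged from 2 to 1392, and the count of the 32 genes passing ranged from 0 to 7. The cause was not tested. Same-numbered libraries of the 2 groups did not deviate together from their group means, with correlations of -0.08, -0.04 and 0.085. Those of other pairs ran from -0.11 to 0.14, and this check cannot show whether the samples were paired. With the block the same 4 of the 32 genes passed, with 11 of the 26 muscle markers and 2 of the 121 related genes. The same 4 passed in every other alternative that kept all libraries, joined by Acadm with a mean of at least 5 FPKM. Over 15 alternatives the fitted log2 change ran from 1.01 to 1.39 for Cpt1b, 1.05 to 1.30 for Acacb, 0.67 to 0.83 for Acsl1 and 0.53 to 0.64 for Acadvl. Of the genes that did not pass, 4 changed sign in some fits. With 1 library left out, Slc27a1 ranged from -0.092 (Clod-lip 1 left out; -0.077 for Empty-lip 1) to 0.11, Ppargc1b from -0.22 to 0.047 (Empty-lip 3), Acaca from -0.11 to 0.017 (Clod-lip 2) and Ucp3 from -0.038 (Clod-lip 3) to 0.42, and with Empty-lip 1 and Clod-lip 2 both left out Slc27a1 was at -0.033. The 3 libraries a group and unknown read counts limit what small differences can show.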
